A study of Mus musculus with 22 samples.

Results

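Genes that hold the mouse oocyte in meiotic arrest or release it from arrest were followed through the RNA-seq libraries of fully-grown germinal vesicle (GV) oocytes that lack RNA interference, the piRNA pathway or both. The 10 members, *Gpr3*, *Pde3a*, *Cdk1*, *Ccnb1*, *Ccnb2*, *Cdc25b*, *Wee2*, *Fzr1*, *Fbxo43* and *Mos*, were taken from the 52636 genes of the count table by their GENCODE symbols, a rule that uses no measured value. All 10 were found and all 10 passed the filter on low counts in both sequencing runs.

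All animals were labelled C57BL/6. The single-end run held wild-type oocytes (Dicer WT/WT, n = 3), Dicer ΔMT/ΔMT oocytes (n = 4), Dicer SOM/SOM oocytes (n = 3) and 1 Dicer ΔMT/WT sample, without ages. Dicer ΔMT lacks the retrotransposon-derived promoter of the short, oocyte-specific Dicer, and a second such promoter remains. Dicer SOM lacks the introns with these promoters and encodes only HA-tagged full-length Dicer. In the paired-end run every group carries at least 1 copy of both mutant alleles. Heterozygous controls were Mili DAH/WT, Dicer SOM/WT (n = 4; 36, 38, 10 and 17 weeks old), RNAi mutants were Mili DAH/WT, Dicer SOM/SOM (n = 2; 17 and 13 weeks), double mutants were homozygous for both, Mili DAH/DAH with Dicer SOM/SOM (n = 4; 40, 35, 11 and 11 weeks). The single piRNA mutant was Mili DAH/DAH, Dicer SOM/WT (n = 1; 16 weeks). DAH is a point mutation that inactivates the enzyme MILI, so the level of its RNA cannot check that label. According to the methods, resumption of meiosis was blocked with the phosphodiesterase inhibitor IBMX while GV oocytes were collected, and each library was made from RNA of pooled oocytes of superovulated or non-stimulated females. Nothing says whether libraries of a group came from different females, so the p-values measure the spread between these libraries, which may be partly technical.

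A fully-grown oocyte waits in prophase of the first meiotic division with a high level of cyclic AMP. The receptor GPR3 keeps adenylyl cyclase active, the phosphodiesterase PDE3A breaks cyclic AMP down, and protein kinase A, which cyclic AMP activates, keeps CDK1 with cyclin B inactive by way of the kinase WEE2 and the phosphatase CDC25B. FZR1 directs the anaphase-promoting complex (APC/C), a ubiquitin ligase, to cyclin B during this arrest. After resumption, the kinase MOS, which acts through the MAP kinase pathway, and the APC/C inhibitor FBXO43, also called EMI2, hold the egg at metaphase II until fertilization. Many of these mRNAs are made during growth, stored with short poly(A) tails and translated only when meiosis resumes, under control of sequences at the 3′ end.

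For this reason the 3′ ends of 4 members are shown, read from GENCODE M21 transcripts on GRCm38 and written 5′ to 3′ in the direction of the mRNA. They are 30-base windows around the poly(A) signal of *Mos*, the member called in the most comparisons, of both cyclin B genes and of *Wee2*, the member with the highest level. Capitals mark the signal (AATAAA) and, in *Wee2*, also a match to a cytoplasmic polyadenylation element (TTTTAT), which lies after the signal.
Mos, chr4:3870661-3870690, minus strand: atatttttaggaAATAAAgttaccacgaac
Ccnb1, chr13:100778656-100778685, minus strand: ctttatgttgctAATAAAcatagttttcga
Ccnb2, chr9:70407693-70407722, minus strand: gtattgaaggaaAATAAAgctattgatcta
Wee2, chr6:40466780-40466809, plus strand: tcattgtaAATAAAgaTTTTATcttatcca

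Within the last 100 bases of the annotated transcript, AATAAA or ATTAAA was found in 8 members, all except *Pde3a* and *Fzr1*, against 78.5% of 19639 protein-coding genes. The element TTTTAT or TTTTAAT was found in *Wee2* alone, against 17.9% of genes, and so was TGTANATA, the binding motif of Pumilio proteins, against 4.3%. *Wee2* held 2 matches to the element, and only the one nearest the poly(A) signal is marked above. Motifs were searched on the mRNA strand only, in a single annotated transcript of each gene, and could overlap. Other forms of the element, sites further upstream and other transcripts were not searched, so its absence from a member was not shown. The 3′ untranslated regions differ widely in length, from 126 bases in *Mos* and 227 in *Ccnb2* to 8555 in *Pde3a*.

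Expressed per kilobase of exon (RPKM), the members spread over a wide range of levels. *Wee2* was highest in wild-type oocytes at 272 ± 10.2 RPKM (SD, n = 3) and stood above 99.4% of the 23151 genes tested. *Ccnb1* followed at 130 ± 9.09 RPKM, *Mos* at 111 ± 7.72 RPKM and *Ccnb2* at 74.0 ± 13.2 RPKM, and the samples of each of these did not overlap with those of the next. *Fbxo43* (54.7 ± 3.53 RPKM), *Pde3a* (52.7 ± 2.59 RPKM) and *Gpr3* (51.9 ± 1.23 RPKM) overlapped in their samples and cannot be ordered. The lowest levels were those of *Fzr1* (16.9 ± 1.73 RPKM), *Cdc25b* (13.7 ± 0.97 RPKM) and *Cdk1* (10.8 ± 0.47 RPKM), again without overlap between neighbours. *Cdk1* encodes the kinase that drives resumption of meiosis, and its RNA still stood above 75.9% of the genes tested.

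In the heterozygous controls *Wee2* was again first at 285 ± 28.9 RPKM (SD, n = 4), but its samples overlapped with those of *Ccnb1* at 240 ± 31.7 RPKM. *Mos* came next at 84.0 ± 15.7 RPKM. *Fbxo43*, *Pde3a* and *Ccnb2* lay between 51.4 and 53.3 RPKM and overlapped, *Gpr3* was at 37.8 ± 3.34 RPKM, and *Fzr1*, *Cdc25b* and *Cdk1* lay between 9.81 and 10.9 RPKM, each overlapping with the next. In RNAi mutants *Mos* fell in this order to 48.5 ± 5.60 RPKM (n = 2), among the values of *Ccnb2* and *Fbxo43*. In double mutants it again came after *Ccnb1*, at 55.3 ± 8.82 RPKM (n = 4) and overlapped with *Ccnb2*.

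**Figure D1:**
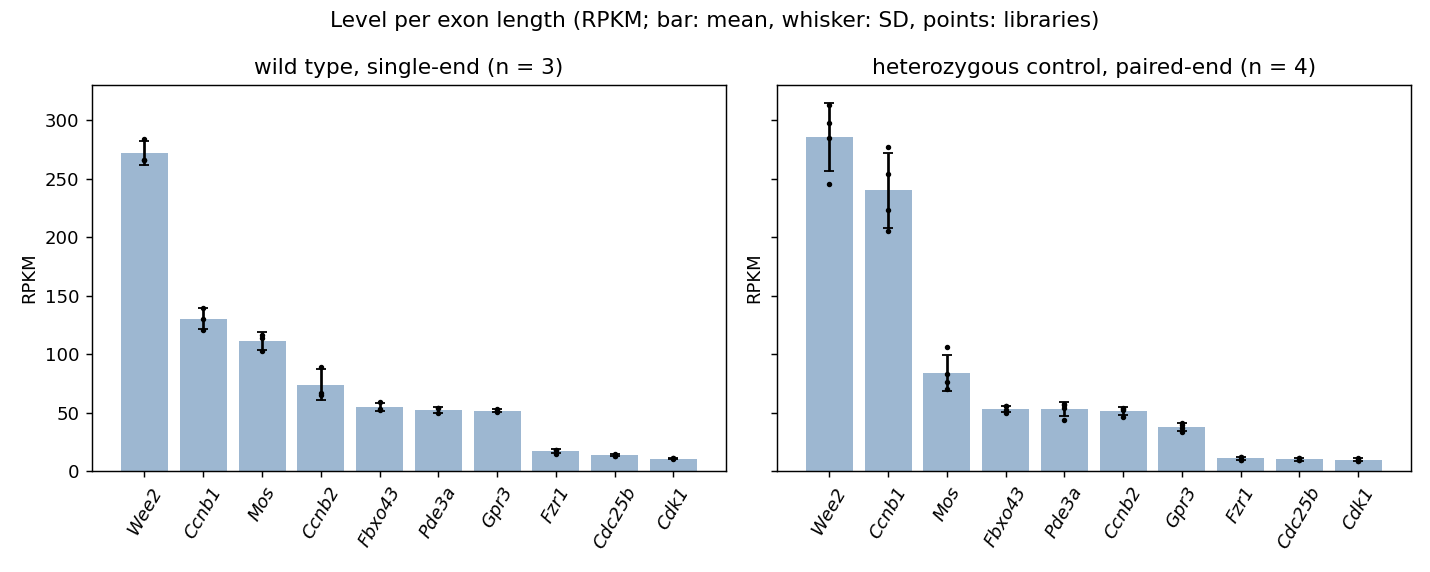
Level per exon length (RPKM) of the 10 members in wild-type oocytes of the single-end run (left, n = 3) and heterozygous controls of the paired-end run (right, n = 4), as mean (bar), SD (whisker) and single libraries (points). *Wee2* was highest in both runs and *Cdk1* lowest, at 10.8 and 9.81 RPKM.

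Single-end libraries held 6468380 (Dicer SOM/SOM replicate 3) to 90713013 counts and paired-end libraries 22928936 to 43540806. The smallest count of any member in any library was 252, for *Cdk1*. *Dicer1* checked the labels: its mean was 47.9% of wild type in Dicer ΔMT/ΔMT, 4.87% in Dicer SOM/SOM, and 9.06% and 9.01% of heterozygous controls in RNAi and double mutants. The 13 oocyte markers were expressed in all libraries, with a sum of at least 14410 CPM, against at most 154 CPM for 15 granulosa and cumulus cell markers and 266 CPM for 10 B cell markers, among which *Igkc* was at 0 and *Cd79a* and *Cd79b* at most at 0.334 CPM. Most of the latter sum came from *Ighm* (39.3 to 102 CPM), *Ms4a1* (27.1 to 64.9 CPM), *Ighg1* (10.2 to 78.9 CPM) and *Pax5* (7.91 to 50.5 CPM), and the other 3 were at most at 1.88 CPM. The paired-end libraries formed 2 sets by *Gm42418*, an annotated gene with ribosomal RNA sequence, which was at 4086 to 5503 CPM in 6 libraries (double mutant 1o and 1, both RNAi mutants, heterozygous control 1o and 3) and at 294 to 557 CPM in the other 5 (double mutant 2o and 2, the piRNA mutant, heterozygous control 2o and 2). In the single-end run Dicer SOM/SOM replicates 1 and 3 had 12720 and 17280 CPM of this gene, against 4760 to 7569 CPM in all other libraries.

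**Figure D2:**
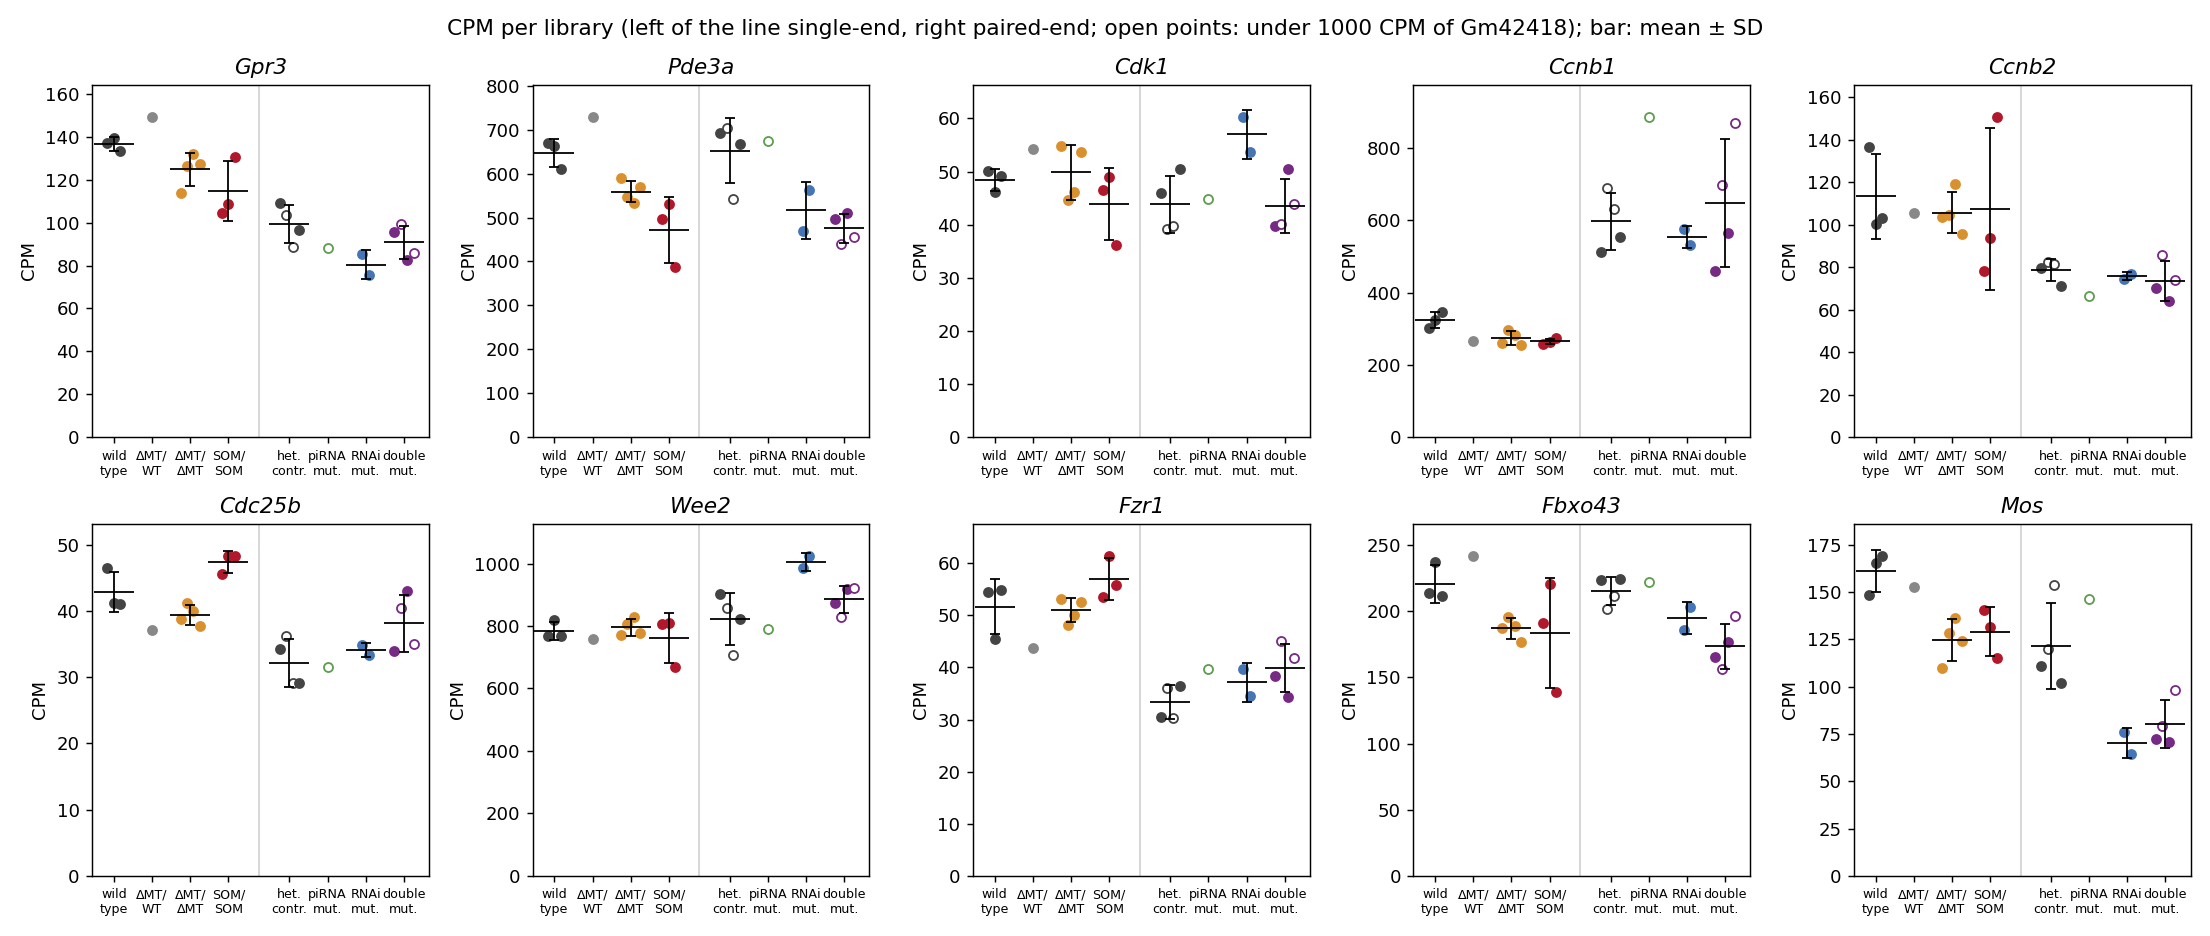
Level of each member in CPM (read count scaled to the library's TMM-normalized total, linear axes from 0) in all 22 libraries, single-end groups left and paired-end groups right of the grey line, with mean ± SD for groups of at least 2. *Mos* lay lower in homozygous Dicer mutants of both runs. *Pde3a* did so too, except that RNAi mutants overlapped with the controls. *Ccnb1* in the paired-end run was highest in the libraries with less *Gm42418* (open points).

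*Mos* (GRCm38 chr4:3870657-3872105, minus strand, a single exon) encodes the kinase that starts the MAP kinase pathway in oocytes. In wild type it was measured at 148, 166 and 169 CPM in the 3 libraries. In Dicer ΔMT/ΔMT it was at 110, 128, 136 and 124 CPM, and in Dicer SOM/SOM at 141, 131 and 115 CPM. All mutant libraries of the single-end run were below all wild-type libraries, and the mutants overlapped with each other. Against wild type, Dicer ΔMT/ΔMT had a log2 fold change of −0.37 (SE 0.10, adjusted p = 0.0259, edgeR's quasi-likelihood test) and Dicer SOM/SOM one of −0.31 (SE 0.11, adjusted p = 0.0468), where SE is the standard error. Between these 2 mutants it was 0.06, with a 95% confidence interval of −0.16 to 0.28.

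*Mos* was also lower in the paired-end run, whose groups all carry the Mili DAH allele too. In RNA of pooled oocytes, fewer cells with an mRNA and less of it in each cell cannot be told apart. Heterozygous controls had 111, 120, 154 and 102 CPM, in the order 1o, 2o, 2 and 3. RNAi mutants had 76.0 and 64.5 CPM, and double mutants had 72.3, 79.3, 70.5 and 98.5 CPM in the order 1o, 2o, 1 and 2. Neither mutant group overlapped with the controls, and RNAi and double mutants overlapped with each other. RNAi mutants showed a log2 fold change of −0.79 (SE 0.19, adjusted p = 0.0165) and double mutants one of −0.60 (SE 0.15, adjusted p = 0.0118), which left 57.7% and 65.9% of the control mean. Between double and RNAi mutants it was 0.19, with a 95% confidence interval of −0.22 to 0.60, so neither sign was resolved with these libraries. The piRNA mutant, at 146 CPM, was within the range of the controls.

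*Mos* was lower within each library set as well. Among libraries with more *Gm42418*, double mutants were at 67.1% and RNAi mutants at 66.0% of the 2 controls of that set, and double mutants with less were at 64.9% of theirs. No RNAi or double mutant library overlapped with the controls of its own set, while the piRNA mutant lay between its 2 controls. With a term for the set, the log2 fold change was −0.60 (adjusted p = 0.00188) in double mutants and −0.61 (adjusted p = 0.0202) in RNAi mutants.

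The call for *Mos* depended on single libraries in 3 of the 4 comparisons. In Dicer ΔMT/ΔMT it was lost, with the same sign, without wild-type replicate 2 or 3 or without Dicer ΔMT/ΔMT replicate 1, 2 or 4 (log2 fold change −0.32 to −0.43 over all libraries left out in turn). Of Dicer SOM/SOM the call was lost without wild-type replicate 2 or 3, Dicer ΔMT/ΔMT replicate 2, 3 or 4, or Dicer SOM/SOM replicate 2 or 3 (−0.24 to −0.38). In RNAi mutants it was lost without either of the 2 RNAi mutant libraries (−0.66 to −0.93). In double mutants it was kept when any 1 library was left out (−0.46 to −0.72), but not among the younger animals alone, with 2 libraries a group (−0.59, adjusted p = 0.175).

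*Pde3a* (chr6:141249269-141507448, plus strand) encodes the phosphodiesterase that lowers cyclic AMP when meiosis resumes. It was at 670, 663 and 612 CPM in wild type and at 498, 530 and 388 CPM in Dicer SOM/SOM, without overlap. The lowest value was that of replicate 3, the library with the fewest counts and the most *Gm42418*. Its log2 change was −0.45 (SE 0.11, adjusted p = 0.0102), and it stayed called in all 16 alternative fits, at −0.33 to −0.55. In Dicer ΔMT/ΔMT, *Pde3a* was at 589, 547, 533 and 569 CPM, between both groups and without overlap with either. Neither difference passed the test there, at −0.21 against wild type (adjusted p = 0.185) and −0.24 in Dicer SOM/SOM against Dicer ΔMT/ΔMT (adjusted p = 0.191). Without Dicer SOM/SOM replicate 3, which entered the fit's estimate of the spread, *Pde3a*, *Ccnb1* and *Fbxo43* were also called in Dicer ΔMT/ΔMT (adjusted p = 0.0295, 0.0356 and 0.0387).

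Heterozygous controls had 693, 704, 543 and 667 CPM of *Pde3a* and double mutants 496, 440, 509 and 455 CPM, again without overlap. A change of −0.46 on the log2 scale (SE 0.12, adjusted p = 0.0120) in double mutants left 72.9% of the control mean, and 73.9% and 71.8% within the sets with more and less *Gm42418*. Among younger animals alone it was −0.32 and not called (adjusted p = 0.329). RNAi mutants, at 470 and 562 CPM, overlapped with the lowest control, replicate 2, and had a log2 fold change of −0.34 (adjusted p = 0.17). Without this control library it was −0.42 and called (adjusted p = 0.0476). From RNAi to double mutants, the log2 fold change was −0.12, with a 95% confidence interval of −0.42 to 0.19. The piRNA mutant was at 674 CPM, among the controls. Exons of *Pde3a* share 6.02% of their length with *Gm28523* on the other strand, and reads were counted without regard to strand.

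*Gpr3* (chr4:133209340-133212536, minus strand) encodes the receptor at the head of the same pathway. Its wild-type libraries were at 137, 140 and 133 CPM and those of Dicer SOM/SOM at 105, 109 and 131 CPM, without overlap. Its change of −0.25 on the log2 scale (SE 0.10, adjusted p = 0.0748) did not pass the test, but did without Dicer SOM/SOM replicate 3 (−0.35, adjusted p = 0.00753) and by DESeq2 (adjusted p = 0.0416). Dicer ΔMT/ΔMT had 114 to 132 CPM and a log2 fold change of −0.13 (adjusted p = 0.363). In the paired-end run, controls had 88.8 to 109 CPM, RNAi mutants, below all controls, 85.2 and 75.7 CPM, and double mutants 82.8 to 99.2 CPM. Neither mutant passed the test, with adjusted p = 0.216 and 0.481.

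*Ccnb1* (chr13:100778650-100786570, minus strand), which encodes cyclin B1, was called in the single-end run and not in the paired-end run. In the single-end run it was at 301, 325 and 347 CPM in wild type, at 261, 297, 284 and 256 CPM in Dicer ΔMT/ΔMT and at 258, 263 and 273 CPM in Dicer SOM/SOM. Both mutants were below wild type without overlap. Dicer SOM/SOM had a log2 change of −0.29 (SE 0.08, adjusted p = 0.0254) and Dicer ΔMT/ΔMT one of −0.24 (SE 0.08, adjusted p = 0.0585). The call in Dicer SOM/SOM was lost without wild-type replicate 2 or 3 or Dicer SOM/SOM replicate 1 or 2 (−0.24 to −0.34 over all libraries left out in turn).

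Across the paired-end libraries the level of *Ccnb1* followed the library sets. Controls had 512, 689, 632 and 556 CPM in the order 1o, 2o, 2 and 3, and double mutants 461, 699, 566 and 869 CPM in the order 1o, 2o, 1 and 2. RNAi mutants had 576 and 533 CPM and the piRNA mutant 887 CPM. All 6 libraries with more *Gm42418* were at 461 to 576 CPM and all 5 with less at 632 to 887 CPM, whatever their genotype. In a fit with a term for the set, added after this was seen, *Ccnb1* was 0.46 log2 units higher in the libraries with less (SE 0.11, adjusted p = 0.0419). It was the only member called of 10, against 3.34% of 20989 genes. The piRNA mutant's 149% of the control mean became 134% of the 2 controls in its own set.

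The double mutants' log2 fold change in *Ccnb1* was 0.12 (95% confidence interval −0.25 to 0.49) and that of RNAi mutants −0.11 (−0.56 to 0.35), and with the set term they were 0.10 and 0.13, all uncalled. The difference between the Dicer SOM/SOM effects of the single-end and the paired-end run was −0.21 (SE 0.18, adjusted p = 0.836), so the runs were not shown to differ. *Ccnb1* has 3 processed pseudogenes, *Gm12856*, *Gm8416* and *Ccnb1-ps*, whose transcripts are at least 95% identical to it over about 52% of its length, and reads with several places were divided. Together they took 159 to 223 CPM in the single-end run but 32.0 to 61.1 CPM in the paired-end run, so the level of *Ccnb1* is uncertain and cannot be compared between runs. With the copies added, the 3 wild-type libraries had 485, 521 and 570 CPM and the Dicer SOM/SOM libraries 443, 442 and 464 CPM, still without overlap.

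**Figure D3:**
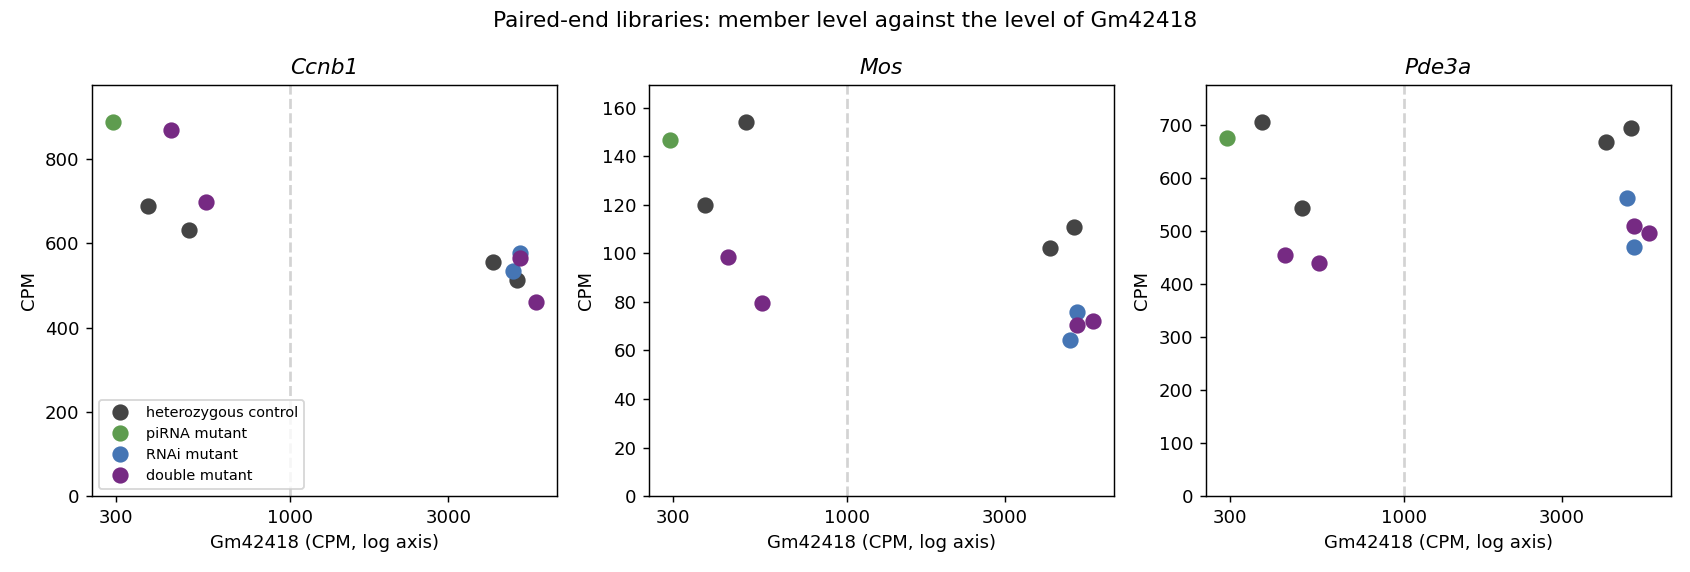
Levels of *Ccnb1*, *Mos* and *Pde3a* (CPM, linear axes from 0) against that of *Gm42418* (CPM, log axis) in the 11 paired-end libraries, coloured by genotype, with the dashed line at 1000 CPM that parts the library sets. *Ccnb1* was at 632 to 887 CPM left of the line and at 461 to 576 CPM right of it for all genotypes, while the double mutants were below the controls on both sides for *Mos* and *Pde3a*.

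*Fbxo43* (chr15:36150060-36164884, minus strand), the inhibitor of the APC/C, was lower in several mutants without passing the test. Controls of the paired-end run were at 224, 202, 211 and 224 CPM and double mutants at 165, 157, 176 and 196 CPM, without overlap. On the log2 scale the change was −0.31 (SE 0.11, adjusted p = 0.0549). It passed in 5 of 20 alternative fits, among them those with an age term (adjusted p = 0.048), with the set term (adjusted p = 0.0313) and without double mutant replicate 2 (−0.37, adjusted p = 0.0299). In the single-end run, Dicer ΔMT/ΔMT had 177 to 195 CPM, below the 212 to 237 CPM of wild type (log2 fold change −0.24, adjusted p = 0.241). Dicer SOM/SOM had 191, 221 and 139 CPM, of which replicate 2 was within the wild-type range (−0.26, adjusted p = 0.194). Without replicate 2 the change was −0.41 and called (adjusted p = 0.0425). Without replicate 3, the library with the fewest counts and the most *Gm42418*, it was −0.097 (adjusted p = 0.443).

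The second cyclin B and the kinase itself were not called in any comparison. *Ccnb2* (chr9:70407692-70421547, minus strand) was at 136, 100 and 103 CPM in wild type and at 78.0, 93.6 and 151 CPM in Dicer SOM/SOM, where its spread was wide (SD 38.2 CPM around a mean of 107 CPM). Its log2 fold change there had a 95% confidence interval of −0.55 to 0.38, which does not resolve a fall of the size seen in *Ccnb1*. Without replicate 3, at 151 CPM, it was −0.40 (adjusted p = 0.0757). The adjusted p of *Ccnb2* was at least 0.624 in each of the 6 genotype comparisons. *Cdk1* (chr10:69335146-69352938, minus strand) was at 46.1 to 50 CPM in wild type and at 36.3 to 49.0 CPM in Dicer SOM/SOM. Against controls it differed most in RNAi mutants, whose 60.3 and 53.7 CPM were above the 39.3 to 50.4 CPM of controls (log2 fold change 0.38, SE 0.16, adjusted p = 0.173). Double mutants, at 39.7 to 50.4 CPM, covered the range of the controls.

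The kinase and the phosphatase that act on CDK1 were not called in any comparison either. *Wee2* (chr6:40442863-40466813, plus strand) was at 767 to 818 CPM in wild type, at 770 to 828 CPM in Dicer ΔMT/ΔMT and at 808, 810 and 669 CPM in Dicer SOM/SOM. The 95% confidence interval of its log2 fold change was −0.16 to 0.19 in Dicer ΔMT/ΔMT and −0.22 to 0.15 in Dicer SOM/SOM. RNAi mutants had 985 and 1025 CPM, above the controls' 709 to 904 CPM, but the difference of 0.29 did not pass the test (adjusted p = 0.181). *Cdc25b* (chr2:131186949-131198497, plus strand) was at 45.5, 48.3 and 48.3 CPM in Dicer SOM/SOM, above the 37.7 to 41.1 CPM of Dicer ΔMT/ΔMT without overlap (log2 fold change 0.27, SE 0.08, adjusted p = 0.0679). Wild type, at 46.4, 41.2 and 41.1 CPM, overlapped with both. DESeq2 called the difference between these mutants (adjusted p = 0.0232), as did edgeR with a filter at 5 CPM (adjusted p = 0.029).

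*Fzr1* (chr10:81366222-81378516, minus strand), the activator of the APC/C during prophase arrest, was at 45.5 to 54.9 CPM in wild type, 48.1 to 53.1 CPM in Dicer ΔMT/ΔMT and 53.6 to 61.4 CPM in Dicer SOM/SOM. In the paired-end run controls had 30.4 to 36.4 CPM and double mutants 34.3 to 45.0 CPM. Its difference of 0.26 on the log2 scale in double mutants (95% confidence interval −0.03 to 0.55) had an adjusted p of 0.207. Exons of *Gpr3*, *Cdc25b* and *Fzr1* share 4.21%, 2.93% and 0.131% of their length with genes on the other strand.

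Counted together, 3 of 10 members were called in Dicer SOM/SOM against wild type (*Pde3a*, *Ccnb1* and *Mos*), where 28.6% of the 23151 genes were, and 1 of 10 in Dicer ΔMT/ΔMT (*Mos*), where 15.4% were. All 4 calls were falls, and 14.2% and 7.3% of all genes fell in these comparisons. Of the paired-end run, 2 of 10 were called in double mutants (*Pde3a* and *Mos*), where 21.2% of 20989 genes were, and 1 of 10 in RNAi mutants (*Mos*), where 10.7% were. All were again falls, which 8.84% and 3.64% of all genes were. No member was called higher by edgeR in any comparison, except *Cdc25b* in Dicer SOM/SOM against Dicer ΔMT/ΔMT with a filter at 5 CPM. With only 1 to 3 members called in each of these comparisons, which share genes and controls, the counts are too small to set apart from these shares. All genes also include many at lower levels than the members. With a filter at 5 CPM, 4372 of 11044 genes were called in Dicer SOM/SOM, and of the members only *Pde3a*. In double mutants 3017 of 10964 genes were called with this filter, and of the members *Pde3a* and *Mos*. All libraries lay lower without overlap in 5 members in Dicer ΔMT/ΔMT (16.7% of all genes), in 4 in Dicer SOM/SOM (21.4%) and in 3 in double mutants (10.2%).

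Their changes were small. Regardless of sign, members in Dicer SOM/SOM had a median log2 fold change of 0.20, against 0.42 over all genes tested, and 0.19 in double mutants, against 0.39. With sign it was −0.19 for members and 0.02 for all genes in Dicer SOM/SOM, and −0.06 and −0.001 in double mutants. Every member stood above at least 75.9% of the genes tested in wild type, and genes of like level were not compared. Dicer SOM/SOM and Dicer ΔMT/ΔMT were compared with the same wild-type libraries, and RNAi and double mutants with the same controls. B cell markers were lower in Dicer SOM/SOM, at 103 to 149 CPM in sum against 223 to 230 CPM in wild type (3 of 7 tested were called lower). Granulosa and cumulus markers summed to 89.6 to 127.8 CPM in double mutants and 104.5 to 154.2 CPM in controls (0 of 12 tested called higher, 1 lower). The part of either in the members' results was not tested.

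**Figure D4:**
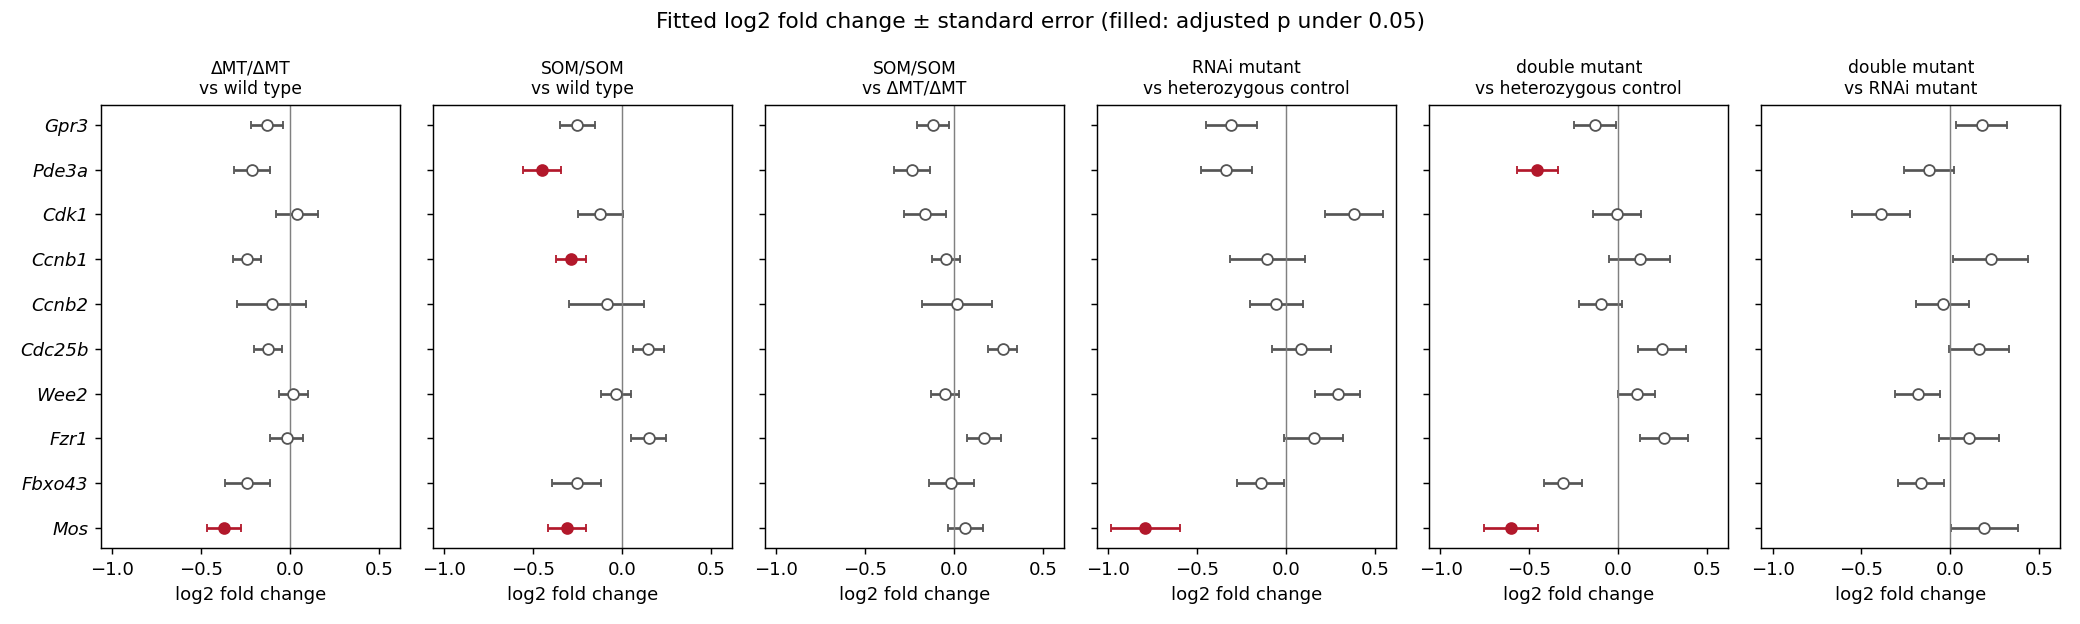
Fitted log2 fold change of each member with its standard error in the 6 genotype comparisons, with filled red points where the adjusted p was under 0.05. Called values were all negative: *Mos* in 4 comparisons, between −0.31 and −0.79, *Pde3a* in 2 and *Ccnb1* in 1.

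Between the RNAi-deficient genotypes of each run no member was called. In Dicer SOM/SOM against Dicer ΔMT/ΔMT, edgeR called 0 of 10 members and 7.35% of all genes. At an unadjusted p under 0.05 were 2 members (*Pde3a* and *Cdc25b*) and 5390 of 23151 genes. DESeq2 called 1 member and 2776 genes. From RNAi to double mutants edgeR called 0 of 10 members and 0.314% of all genes. At an unadjusted p under 0.05 were 1 member (*Cdk1*, log2 fold change −0.39) and 1004 of 20989 genes. DESeq2 called 0 members and 170 genes. The 95% confidence intervals of the latter comparison reached from −0.74 in *Cdk1* to 0.68 in *Ccnb1*, so differences of that size were not resolved.

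Animals over 30 weeks were compared with younger ones among double mutants and controls, with genotype as a term. edgeR called 0 of 10 members and 0% of 18641 genes, with 0 members and 1022 genes at an unadjusted p under 0.05, and DESeq2 called 0 members and 50 genes. The largest differences of the members were 0.18 in *Gpr3* (adjusted p = 0.881) and −0.18 in *Cdk1* (adjusted p = 0.918). The Dicer SOM/SOM effects of both runs differed in 0 of 10 members and in 0.00426% of 23454 genes by edgeR. At an unadjusted p under 0.05 were 1 member and 1839 genes, and DESeq2 called 0 members and 79 genes. The most different members were *Cdk1* (−0.54, adjusted p = 0.582 by edgeR) and *Mos* (0.46, adjusted p = 0.663). The fitted fall of *Mos* was larger in the paired-end run, but the 95% confidence interval of the difference was −0.04 to 0.955. The controls of the runs also differ in genotype.

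The single samples are given as values only. The share of all genes outside the range of the wild-type or control libraries was not computed. Positions outside that range are therefore not read as a result about the members. Dicer ΔMT/WT, with *Dicer1* at 70.8% of wild type, had *Mos* at 94.7% and *Ccnb2* at 93.1% of the wild-type mean, within the wild-type range. The other 8 members lay outside it. *Pde3a* (113%), *Cdk1* (112%), *Fbxo43* (110%) and *Gpr3* (109%) were above and *Ccnb1* (82.4%), *Fzr1* (84.6%), *Cdc25b* (86.6%) and *Wee2* (96.6%) below all wild-type libraries. The piRNA mutant had *Gpr3* at 88.8% and *Ccnb2* at 84.3% of the control mean, below all controls, and *Fzr1* at 119%, above all. Its *Mos*, *Pde3a*, *Cdk1*, *Cdc25b*, *Wee2* and *Fbxo43* were within the range of the controls.

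Around the members, the pathway genes moved in both directions. Of 17 further genes of the cyclic AMP arrest pathway, all tested, 2 rose and 2 fell in Dicer SOM/SOM, and 1 rose and 2 fell of 16 tested in double mutants. *Prkar2a*, a regulatory subunit of protein kinase A, rose by 0.39 on the log2 scale in Dicer SOM/SOM (adjusted p = 0.00266) and by 0.56 in double mutants (adjusted p = 0.00376). *Akap1*, which anchors the kinase at mitochondria, fell by 0.63 (adjusted p = 0.00431) and by 0.35 (adjusted p = 0.0317). *Adcy3*, an adenylyl cyclase of the oocyte, rose by 0.58 and the phosphodiesterase gene *Pde3b* fell by 0.54 in Dicer SOM/SOM, and *Prkar1a* fell by 0.40 in double mutants.

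Of 26 further genes around CDK1 and cyclin B, 25 were tested; 3 rose and 2 fell in Dicer SOM/SOM and 3 rose and 1 fell in double mutants. *Ccna2*, which encodes cyclin A2, rose by 0.48 (adjusted p = 0.00154) and by 0.62 (adjusted p = 0.00321), and *Ensa*, an inhibitor of the phosphatase that opposes CDK1, fell by 0.72 (adjusted p = 0.0178) and by 0.75 (adjusted p = 0.00416). *Cdc25c* rose by 0.52 and *Ccnb3* fell by 0.36 in Dicer SOM/SOM. The largest change was that of *Cdc14b*, a phosphatase that delays meiotic resumption in mouse oocytes. It was at 17.2, 21.9, 28.9 and 19.8 CPM in controls, at 50.7 and 39.0 CPM in RNAi mutants, at 161, 203, 162 and 217 CPM in double mutants and at 28.0 CPM in the piRNA mutant. Controls, RNAi mutants and double mutants did not overlap. Its log2 fold change was 3.08 in double mutants (SE 0.18, adjusted p = 8.31e-08), 1.03 in RNAi mutants (adjusted p = 0.00457) and 2.05 from RNAi to double mutants (adjusted p = 0.000536), the only call of the 4 pathway lists there. In the single-end run Dicer SOM/SOM had 0.88 (adjusted p = 0.156), whose libraries were at 9.53, 49.9 and 20.3 CPM.

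Of 24 further genes of the APC/C and its regulators, all tested, 3 rose and 4 fell in Dicer SOM/SOM and 2 rose and 2 fell in double mutants. *Ube2c*, the ubiquitin-conjugating enzyme of the APC/C, rose from 188 to 215 CPM in wild type to 544 to 714 CPM in Dicer SOM/SOM (log2 fold change 1.59, SE 0.105, adjusted p = 2.27e-06) and from 124 to 207 CPM in controls to 284 to 533 CPM in double mutants (1.29, adjusted p = 0.000418). In both controls and double mutants it was higher in the libraries with more *Gm42418*. *Fbxo5*, which encodes EMI1, the relative of FBXO43, rose by 0.64 in Dicer SOM/SOM, and the checkpoint kinase gene *Bub1* rose by 0.46 in double mutants. The subunit genes *Anapc16* fell in both (by 0.50 and 0.45), *Cdc27* by 0.65 in Dicer SOM/SOM and *Anapc13* by 0.72 in double mutants.

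Among 14 further genes of the MOS, MAP kinase and calcium pathway, 13 were tested; 3 rose and 5 fell in Dicer SOM/SOM and 1 rose in double mutants. *Mapk3* (ERK1) fell by 0.59 in Dicer SOM/SOM, and *Map2k1*, the MAP kinase kinase that MOS activates, rose by 0.64 in double mutants (adjusted p = 0.00264). *Ppp3ca*, a catalytic subunit of the calcium-dependent phosphatase calcineurin, fell by 1.45 in Dicer SOM/SOM (adjusted p = 0.000311), while its relative *Ppp3cb* rose by 0.51 and the kinase gene *Camk2d* by 1.17 from a low level.

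For *Pde3a* and *Mos*, the members called in both Dicer SOM/SOM against wild type and double mutants against controls, the genes most like them over all libraries of each run (11 and 11) were looked up among 20088 genes. *Pde3a* was most like *Usp9x* (Pearson's r of log2 CPM 0.97 and 0.96) and *Mllt10* (0.97 and 0.96), and *Mos* most like *Ctnnal1* (0.94 and 0.93) and *Wdr20* (0.92 and 0.96). Among the members, *Pde3a* and *Fbxo43* had an r of 0.86 and 0.79 and *Mos* and *Fbxo43* of 0.72 and 0.66. These are descriptions over libraries that share genotypes, depth and library sets.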

How the data were processed

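RNA of fully-grown mouse GV oocytes was sequenced in a single-end (11 libraries) and a paired-end run (11). Libraries were made with the Ovation V2 kit. The deposited table holds expected counts: the authors mapped with STAR 2.5.3a to mm10 (GRCm38) and counted on GENCODE M15 genes with featureCounts, without strand, dividing reads with several places or genes, without normalization. Counts were rounded. For the genotype comparisons each run was fitted apart with edgeR 4.0.16 (R 4.3.3). The difference between runs came from a joint fit of the wild-type, Dicer SOM/SOM, heterozygous control and RNAi mutant libraries. Fits used TMM, filterByExpr (minimum count 10, total 15, groups of at least 2) and the quasi-likelihood F test. Adjustment was by Benjamini-Hochberg over all genes tested, with calls at 0.05. The single Dicer ΔMT/WT library was left out of fits; the piRNA mutant had its own group. Confidence intervals used the fit's degrees of freedom. Total counts were 6468380 to 90713013. RPKM was CPM per kilobase of the file's exon length. DESeq2 1.42.0, other normalization, filters, blocks, ages and left-out libraries were alternatives; the library set fits, parted at 1000 CPM of *Gm42418*, were added after the values were seen. Tests were tried on simulated data.

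Members, lists and alternatives were chosen with earlier results of these data known. All members are named. Named pathway genes are, per list, up to 2 highest rises and 2 largest falls among the genes called in Dicer SOM/SOM against wild type and in double mutants against controls with a mean of at least 1 CPM in a group. Same-numbered libraries varied together little (correlation −0.06 to 0.18, over 0.1 in 2 of 15 pairs). These 2 were controls with double mutants, number 1o (0.134) and number 2 (0.179), each pair within 1 library set. Reads were not mapped again, so isoforms and poly(A) tails were not analysed here. One pathway gene that the naming rule chose is not reported here.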

Additional observations from a re-analysis of the deposited data

How the results depend on the processing

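Over 1360 alternative values of the members' log2 fold changes, 1311 kept their side of the threshold, 30 lost a call and 19 gained one. No called value changed sign, while 70 values called in neither fit did. Numbers of members called moved as follows. In Dicer ΔMT/ΔMT against wild type (1 called), DESeq2 gave 2, no filter 0, only the compared groups 4, the replicate block 0, and leaving out each library in turn 0 to 4. The numbers of all genes called moved too. Here the main fit called 3556 of 23151 genes, DESeq2 4391 and the replicate block 2519. No filter gave 2863 of 39390 genes, only the compared groups 5307 of 22213, and left-out libraries 2203 to 4858. In Dicer SOM/SOM against wild type (3), DESeq2 gave 4 (with *Gpr3*), no filter and the replicate block 2 each (without *Mos*), a filter at 5 CPM and only the compared groups 1 each and left-out libraries 1 to 3. Of all genes, the main fit called 6627 of 23151, DESeq2 7184 and the replicate block 5898. No filter gave 6011 of 39390 genes, the filter at 5 CPM 4372 of 11044 and only the compared groups 4768 of 21996. Left-out libraries gave 4979 to 6389 genes. Between these 2 mutants (0), DESeq2 and a filter at 5 CPM gave 1 each, with 2776 of 23151 and 1831 of 11044 genes, against 1702 of 23151 in the main fit. In RNAi mutants (1), younger animals only gave 0, only libraries with more *Gm42418* gave 2 and left-out libraries 0 to 2. Of all genes, the main fit called 2247 of 20989, younger animals only 1353 of 19709 and only libraries with more *Gm42418* 2575 of 20022. Left-out libraries gave 1077 to 2390 genes. In double mutants (2), the replicate block gave 1, as the call of *Pde3a* was lost (adjusted p = 0.0874), and younger animals only gave 0, with fewer samples. DESeq2, the age term, the library set term, only libraries with more *Gm42418* and leaving out double mutant replicate 2 gave 3 each, with *Fbxo43*. Of 20989 genes, the main fit and the age term called 4447 each, the replicate block 3381, DESeq2 5101 and the set term 5255. Younger animals only gave 1932 of 19709 genes, and only libraries with more *Gm42418* 3322 of 20022. Without double mutant replicate 2 it was 4255 of 20826. Other causes were not tested. The labels do not say whether equal replicate numbers pair samples, so the replicate block is not read as a paired analysis. Mean CPM scaled to library totals alone moved by more than the SD in 2 of 60 group means (*Ccnb1* 274 and *Cdc25b* 49.1 CPM in Dicer SOM/SOM).

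With 2 to 4 libraries a group, many single calls rest on few samples. All members had at least 252 counts in every library. Counts do not show poly(A) tails, protein or translation.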
